A study of Drosophila melanogaster with 8 samples.

Results

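The proteasome genes of the adult *Drosophila* brain were examined in Emc-overexpressing and Control flies. They were taken as the rows of the deposited count table whose gene name began with Prosalpha, Prosbeta, Rpn or Rpt, the last 2 followed by a number, which gave 47 of 23932 rows. Of these, 32 were the ubiquitous subunits and 15 were paralogs whose names carry a T or R suffix, the testis-type genes. RNA came from whole brains of flies 0 to 1 day old, dissected from males and females that were pooled within each replicate. EmcOE flies (*elavC155-Gal4>UAS-emc*) carried the *elavC155-Gal4* driver and a *UAS-emc* transgene, and Control flies came from the same driver crossed to white* flies. The driver is active in neurons, whereas all cells of the brain were sequenced, and EmcOE and Control also had different second parent lines. Emc is a partner that keeps the E-protein Daughterless (Da) from binding DNA, and the comparison asks which genes respond when Da is inhibited in neurons. There were 4 EmcOE and 4 Control samples, which the labels number but do not tie to separate cultures or crosses, so that the p-values measure the spread between these samples.

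The proteasome is the protease that degrades proteins marked with ubiquitin chains. Its 20S core is a barrel of stacked rings, in which outer alpha rings gate the entrance and inner beta rings hold the peptidase sites. The 19S cap has a base, whose Rpt ATPases unfold the substrate and feed it into the core and whose non-ATPase subunits hold and receive ubiquitin, and a lid of Rpn subunits around Rpn11, the enzyme that cuts ubiquitin off the substrate. In *Drosophila*, several subunits have a second gene copy used in the male germ line; Prosalpha6T, for example, replaces Prosalpha6 during sperm formation. In neurons, protein turnover by the proteasome takes part in synapse growth and in memory.

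The libraries held 20751513 to 41619980 counts, with EmcOE replicate 1 the deepest and every other library at most 22776791. No replicates held identical counts. Values are given as normalized counts, which are counts divided by the TMM-scaled library size and multiplied by its mean over samples. *emc* checked the labels, at 6055 ± 172 against 4966 ± 155 normalized counts (mean ± SD, n = 4 each) in EmcOE and Control brains with no overlap, a log2 fold change of 0.29 (SE 0.0429, edgeR adjusted p 0.00246). The 9 neuron markers, *elav* and *nSyb* among them, summed to 184085 to 211071 normalized counts per sample, none at 0.

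The ubiquitous subunits were measured well, with 1 exception. In 31 of the 32, every sample had between 1312 and 10666 raw counts, and the remaining one, Prosalpha1, is described with the paralogs. Their level per kilobase of exon, the scale used for all comparisons between genes, spanned only 1.82-fold, from 1890.4 ± 166 for Rpn8 to 3436 ± 346 for Prosbeta5 (mean ± SD over all 8 samples). They lie on chromosomes 2L, 2R, 3L, 3R and X (4, 10, 5, 9 and 4 of the 32) and their exons add up to 815 to 3412 bp.

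By place in the particle, the median level per kilobase was 2740 in the alpha ring (6 measured genes), 2496 in the beta ring (7 genes), 2715 in the Rpt ATPases (6 genes), 2254 in the non-ATPase subunits of the base (4 genes) and 2768 in the lid (8 genes). In the alpha ring, Prosalpha3, whose yeast counterpart closes the gate of the core, was highest at 3141 ± 276 and Prosalpha6 lowest of the measured genes at 2085 ± 219. In the beta ring, Prosbeta5, the chymotrypsin-like peptidase, was highest and Prosbeta3, which has no peptidase site of its own, lowest at 1967 ± 167. Among the ATPases the ends were Rpt3 at 3047 ± 380.3 and Rpt5 at 2262 ± 221. In the rest of the base, the ubiquitin receptor Rpn10 reached 3081 ± 368 and the scaffold Rpn2 1906 ± 208. In the lid, Rpn9, a structural subunit, reached 3131 ± 391, and Rpn8, the inactive partner of Rpn11, was lowest of all. No 2 neighbours in the order of the 31 levels differed by more than the larger of their SDs over the samples. Of the exon length of Rpt6, 13.0% overlaps *CG1801*. Counting was without strand, and how pairs in the shared stretch were assigned was not examined. The overlapped share was 7.93% for Prosbeta2, 7.14% for Rpt2, 6.35% for Rpt4 and 6.317% for Rpn7.

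**Figure D1:**
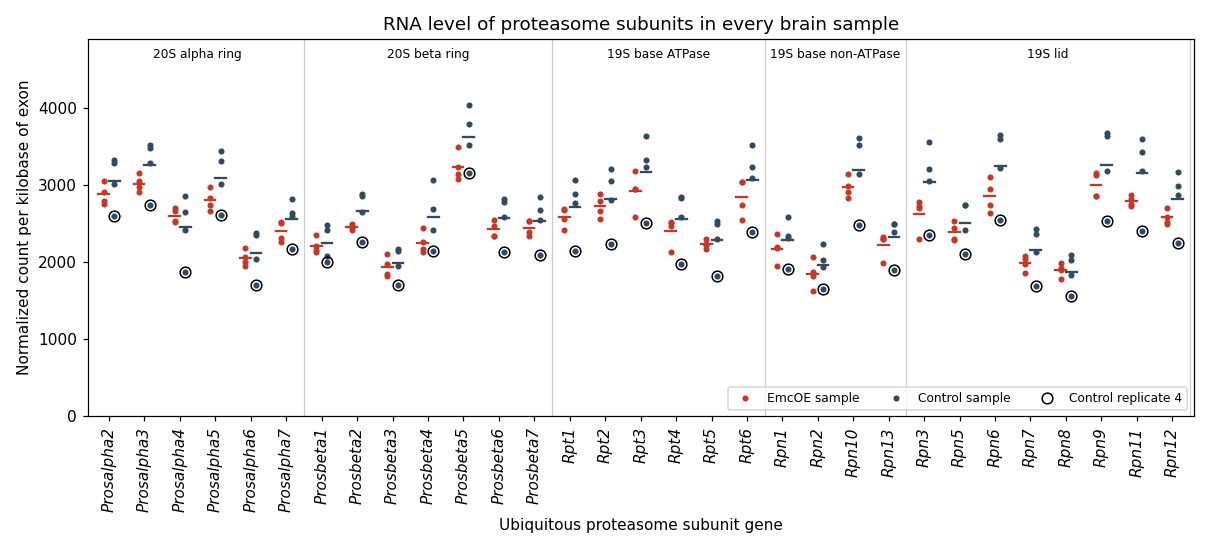
Normalized count per kilobase of exon (vertical axis, from 0) for the 31 measured ubiquitous subunits, ordered by place in the proteasome. Each point is 1 sample (red EmcOE, blue Control), each bar a group mean of 4 samples and each circle Control replicate 4, which is the lowest sample in 27 of the 31 genes. Means over the 8 samples lie between 1890.4 and 3436.

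No subunit of the proteasome passed the test between EmcOE and Control brains. Of the 34 members that averaged 20 or more normalized counts in either group, 0 were called up- or downregulated (edgeR adjusted p up to 0.05 together with 0.2 or more on the log2 scale in either direction), where 8.68% of all 9788 tested features were called. DESeq2 also called 0, beside 10.8% of all features. An unadjusted edgeR p below 0.05 was found for 1 member, beside 25.5% of all features. None of the 34 had groups whose values did not overlap, which 16.4% of all features had. The estimates were small and leaned one way: 29 of 31 ubiquitous subunits had a lower mean estimate in EmcOE with the TMM scaling, and 22 of 31 with total counts as library size, which set the median of all features 0.07 higher. The median log2 fold change of the 31 was -0.09, beside 0.01 for all features, of which 47.03% were lower. Single estimates ran from -0.21 (Rpn3) to 0.09 (Prosalpha4), and their 95% intervals reached from -0.46 to 0.32. In whole brains, fewer cells that express a subunit and less RNA per cell cannot be told apart.

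The places in the particle had similar medians, at -0.09 for both core rings, -0.08 for the ATPases and for the non-ATPase base and -0.12 for the lid. In the beta and ATPase groups and the non-ATPase base every measured subunit was lower in EmcOE (7 of 7, 6 of 6 and 4 of 4), in the alpha ring 5 of 6 and in the lid 7 of 8, the exceptions being Prosalpha4 and Rpn8, at log2 fold changes of 0.09 and 0.02; none of these passed the test, and with total counts as library size 9 of the 31 were higher in EmcOE.

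**Figure D2:**
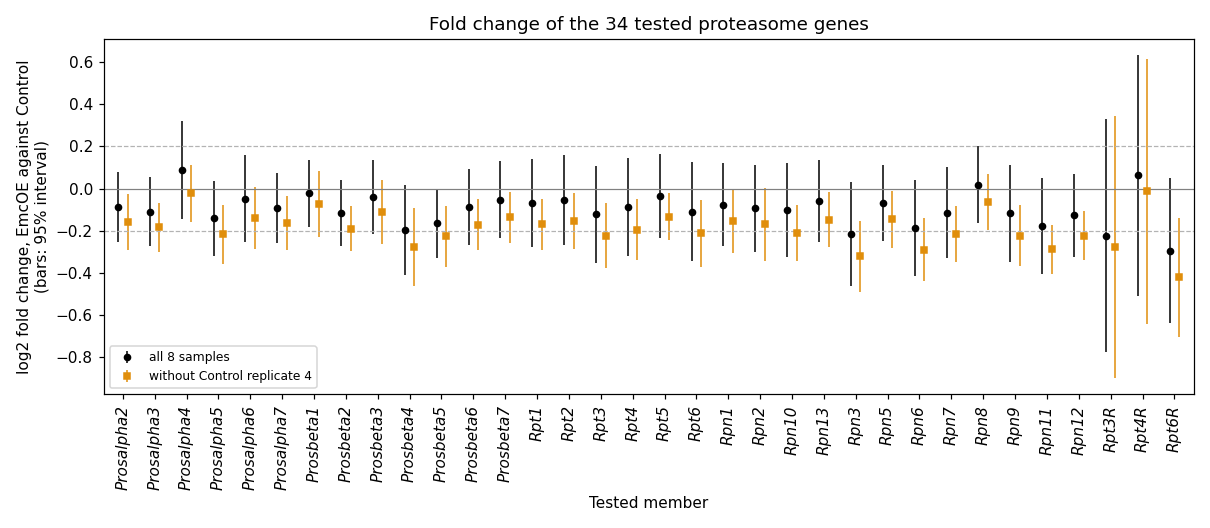
log2 fold change of EmcOE against Control (vertical axis) with its 95% interval for the 34 tested members, from all 8 samples (black circles) and without Control replicate 4 (orange squares). Dashed lines mark 0.2 in size. With all samples, 31 of the 34 estimates lie below 0 with TMM scaling (of the ubiquitous subunits 29 of 31, and 22 of 31 with total counts), and 0 members were called. Control replicate 4 was singled out because it was lowest in 27 of the 31 ubiquitous subunits. Without it, edgeR called 4 down, all lid subunits, beside 4.09% of all features called down. The core subunit Prosbeta2 passed adjustment but missed the 0.2 minimum, at -0.19. Without the same library, DESeq2 called 11 in core, base and lid, beside 5.66% of all features. There, edgeR with total counts called 0, beside 2.43%.

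The smallest p belonged to Prosbeta5, the chymotrypsin-like site of the core (FBgn0029134, chromosome 2R, 10819978 to 10821178). It had 3691, 3981, 3508 and 3587 in EmcOE replicates 1 to 4 and 4011, 4604, 4329 and 3597 in Control replicates 1 to 4, in normalized counts. Control replicates 1 to 3 stood above every EmcOE sample and Control replicate 4 stood among them, so the groups overlapped. The means were 3692 ± 207 against 4135 ± 433 and the log2 fold change was -0.16 (SE 0.074, edgeR adjusted p 0.195), with an unadjusted p of 0.0498; 7.11% of its exon length overlaps *Lsm10*.

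Prosbeta4, a structural subunit of the same ring (FBgn0032596, chromosome 2L, 16731180 to 16732133), had 1839, 1997, 1738 and 1769 in EmcOE and 1977, 2498, 2195 and 1746 in Control, listed here and below by replicate. Control replicates 2 and 3 were above every EmcOE sample, Control replicate 1 was just below EmcOE replicate 2, and Control replicate 4 lay within the EmcOE range. Its log2 fold change was -0.20 (SE 0.0964, edgeR adjusted p 0.233). Prosbeta3 (FBgn0026380, chromosome 3R, 9005313 to 9006226) had 1803, 1926, 1670.1 and 1691 in EmcOE and 1782, 1959, 1990.1 and 1562 in Control, an overlapping set with a log2 fold change of -0.04 (SE 0.0787, edgeR adjusted p 0.793). The other peptidase subunits, the caspase-like Prosbeta1 and the trypsin-like Prosbeta2, had log2 fold changes of -0.02 and -0.12, so that none of the 3 peptidase genes passed the test.

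In the alpha ring, Prosalpha3 (FBgn0261394, chromosome 2R, 20994900 to 20996118) had 3073, 2969, 2890.4 and 2828 in EmcOE and 3198, 3433, 3386 and 2672 in Control. Control replicates 1 to 3 were above the EmcOE samples and Control replicate 4 was below them, and the log2 fold change was -0.11 (SE 0.0737, edgeR adjusted p 0.387). Prosalpha6 (FBgn0250843, chromosome 2L, 10221351 to 10222546), the subunit with a sperm counterpart, had 2089, 2335, 2214 and 2140.5 in EmcOE and 2185, 2542, 2516 and 1825 in Control. Here Control replicate 1 also fell inside the EmcOE range, and the log2 fold change was -0.05 (SE 0.094, edgeR adjusted p 0.796).

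Of the ATPases, Rpt3 (FBgn0028686, chromosome X, 11125101 to 11126785) had 4013, 4592, 4950.3 and 4576 in EmcOE and 5018, 5654, 5166 and 3888 in Control. Control replicates 1 to 3 were again the upper samples, Control replicate 4 was the lowest, and the log2 fold change was -0.12 (SE 0.104, edgeR adjusted p 0.5). Rpt5 (FBgn0028684, chromosome 3R, 23752876 to 23754623), one of the ATPases whose tails open the gate of the core in yeast, had 3532, 3638, 3620.1 and 3748 in EmcOE and 3751, 4073, 4124 and 2963 in Control. The EmcOE samples of Rpt5 lay close together between the upper Control samples and Control replicate 4, with a log2 fold change of -0.04 (SE 0.0897, edgeR adjusted p 0.842).

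Rpn10, the ubiquitin receptor of the base (FBgn0015283, chromosome 3L, 21537000 to 21538582), had 4136, 4258, 4473 and 4031 in EmcOE and 4482, 5142, 5004 and 3527 in Control. The lowest of the upper Control samples was barely above EmcOE replicate 3, and the log2 fold change was -0.10 (SE 0.101, edgeR adjusted p 0.56). Rpn2, the scaffold that carries the receptor Rpn13 (FBgn0028692, chromosome 3R, 29153524 to 29157255), had 5550.1, 6387, 7036 and 6207 in EmcOE and 6604, 7649.6, 6938 and 5661 in Control. Its groups overlapped throughout, EmcOE replicate 1 was its lowest sample and EmcOE replicate 3 exceeded all Control samples but replicate 2, with a log2 fold change of -0.09 (SE 0.0935, edgeR adjusted p 0.573). The receptor Rpn13 and the scaffold Rpn1 had log2 fold changes of -0.06 and -0.08.

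The lid held the largest estimate among the ubiquitous subunits. Rpn3, one of its horseshoe of scaffold subunits (FBgn0261396, chromosome 2L, 19051790 to 19053681), had 4210.4, 5086, 4998 and 4944 in EmcOE and 5587, 6525, 5890.2 and 4305 in Control. Its upper Control samples were all above the EmcOE samples and Control replicate 4 was above EmcOE replicate 1 only, and the log2 fold change was -0.21 (SE 0.112, edgeR adjusted p 0.261). Rpn9 (FBgn0028691, chromosome 3R, 23731375 to 23733462) had 4799.6, 5295, 5266 and 4807 in EmcOE and 5338, 6119, 6176 and 4254 in Control, and Rpn8 (FBgn0002787, chromosome 2R, 24400028 to 24404527) had 2914, 2957, 3052 and 2732 in EmcOE and 2806, 3207, 3104 and 2396 in Control. In Rpn9 the EmcOE samples stood between the upper Control samples and Control replicate 4, with a log2 fold change of -0.12 (SE 0.104, edgeR adjusted p 0.513). In Rpn8, Control replicate 1 was inside the EmcOE range and the log2 fold change was 0.02 (SE 0.0826, edgeR adjusted p 0.916).

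Much of the spread lay in 1 library. Control replicate 4 was the lowest of the 8 samples in 27 of the 31 ubiquitous subunits (28 of the 34 tested members), where it was lowest in 15.4% of all tested features. The median ubiquitous subunit had 3130.0, 3463, 3403 and 3294 normalized counts in EmcOE replicates 1 to 4, 3751, 4073 and 4124 in Control replicates 1 to 3 and 2902 in Control replicate 4. The other 3 Control libraries were thus above, and Control replicate 4 below, every EmcOE library. Between Control replicates 2 and 4, the fold was 1.37 in the median subunit (1.21 to 1.52 over the 31) and 1.00 in the median feature. The SD of log2 values within a group had a median of 0.22 over the 31 subunits in Control and 0.07 in EmcOE, beside 0.11 and 0.12 over all features, and without Control replicate 4 the Control median was 0.10.

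**Figure D3:**
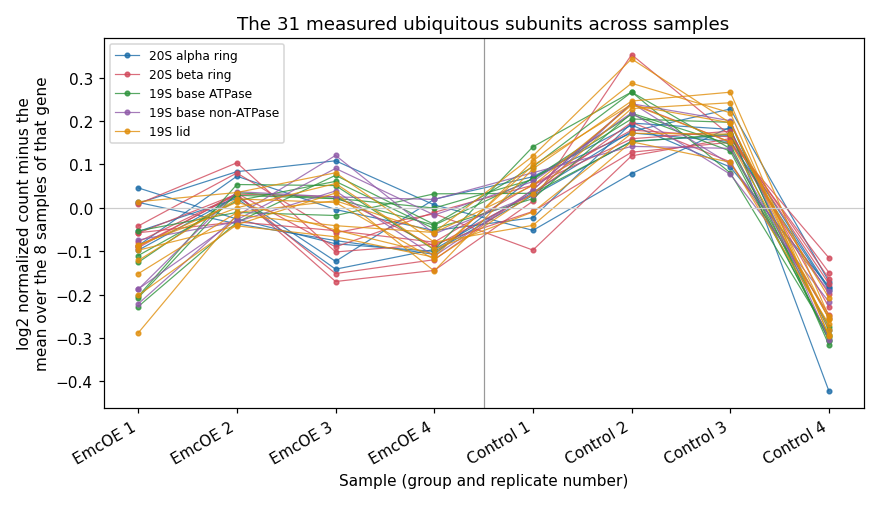
log2 normalized count of each of the 31 measured ubiquitous subunits minus its own mean over the 8 samples (vertical axis), by sample, with 1 line per gene coloured by place in the proteasome. The lines of all 5 places run together: they are above 0 in Control replicates 2 and 3 and below 0 in Control replicate 4, where the median subunit had 2902 normalized counts, against 4073 in Control replicate 2.

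Control replicate 4 also differed in markers of other cells. The summed photoreceptor markers (8 genes, 5 of them highest in that library) were 587237 normalized counts there against 479380 to 538236 in the other 7 libraries, the fat body markers (9 genes, 4 highest) 201558 against 53131 to 161530, and the hemocyte markers (5 genes, 3 highest) 8678 against 6781 to 8394. The neuron markers (9 genes, 1 highest) were inside the range of the others, at 200054. None of these markers was at 0 in all samples. The 4 fat body markers highest in Control replicate 4 were *Yp1*, *Yp2*, *Yp3* and *apolpp*, at 31223, 70212, 71495 and 27839, which made up most of that sum. The list did not move as 1: *Lsp1beta* was lowest of the 8 samples there, at 117, and *Fbp1* was low at 70.2. Between the groups, 3 of 9 fat body markers were called up in EmcOE, beside 3.57% of all features called up. Of the hemocyte markers, 3 of 5 were called down, beside 5.12% of all features called down. Those up were *Fbp1*, *Lsp1alpha* and *Lsp1beta* (log2 fold changes 2.06, 1.30 and 1.49), and those down *Hml*, *NimC1* and *Ppn* (-0.69, -0.48 and -0.53). Not called were *Yp1*, *Yp2*, *Yp3*, *apolpp*, *Lsp1gamma* and *Lsp2* (0.02, 0.02, -0.21, -0.10, -0.25 and 1.10). Nor were the hemocyte markers *Pxn* (0.07) and *eater* (-0.68). In the fat body and hemocyte lists, the summed levels were 90010 to 161530 and 6781 to 7944 in EmcOE. In Control they were 53131 to 201558 and 7617 to 8678. With TMM scaling, 6 of 6 muscle markers were lower in EmcOE (median log2 fold change -0.30, summed level 18353 to 28435 against 22397 to 34027) and 7 of 9 neuron markers were higher (median 0.14, 192777 to 211071 against 184085 to 201212). In each of these 2 lists edgeR called 0 genes, beside 8.68% of all features called in either direction. In each, 3 genes had an unadjusted edgeR p below 0.05, beside 25.5% of all features. Their part in the subunits' values was not tested.

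Each of the 8 samples was left out in turn, and the fit without Control replicate 4 is described at length because that library's low values had been seen. It gave lower estimates in EmcOE for 31 of 31 ubiquitous subunits with TMM scaling and 30 of 31 with total counts. The median log2 fold change was -0.17, beside 0.01 for all features. With edgeR, 4 of the 31 were then called downregulated, beside 4.09% of all features called downregulated in that fit, and 25 had a lower value with an unadjusted p below 0.05, beside 11.9% of all features. In 19 of 31, all 4 EmcOE values were below the 3 Control values, which 10.6% of all features showed. That library was singled out because it was lowest in 27 of these 31 subunits, so leaving it out by itself lowers most of their estimates. All features were not selected in this way, so their shares are no measure of chance for the subunits. The 31 subunits also ran together across samples and are not independent. Without the same library, DESeq2 called 11 of the 31 downregulated, beside 5.66% of all features, and edgeR with total counts called 0, beside 2.43%. These 2 fits were added after seeing the data. Leaving out any other single library gave 0 called members, with medians from -0.12 (without EmcOE replicate 2) to -0.05 (without Control replicate 2).

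The 4 subunits called by edgeR without Control replicate 4 were lid subunits, the enzyme Rpn11 and the scaffold subunits Rpn3, Rpn6 and Rpn12. DESeq2 called these and Rpn7 and Rpn9 of the lid, Prosalpha5, Prosbeta4 and Prosbeta5 of the core and Rpn10 and Rpt3 of the base, and whether the places differ was not tested. With edgeR, the core subunit Prosbeta2 also passed adjustment without that library (edgeR adjusted p 0.043). Its log2 fold change of -0.19 missed the 0.2 minimum. For Rpn11 (FBgn0028694, chromosome 2L, 5058404 to 5059790), the normalized counts were 3331, 3463, 3403 and 3294 in EmcOE and 3841, 4349.7, 4149 and 2907 in Control. The EmcOE values lay within a narrow band between the upper Control samples and Control replicate 4. The log2 fold change was -0.18 (SE 0.103, edgeR adjusted p 0.314) with all samples and -0.29 (SE 0.0522, edgeR adjusted p 0.0111) without Control replicate 4. Rpn6, which clamps the lid to the core (FBgn0028689, chromosome 2R, 14750166 to 14752910), had 5129, 5742, 6040.4 and 5333 in EmcOE and 6278, 6997, 7097 and 4959 in Control. The log2 fold change was -0.19 (SE 0.103, edgeR adjusted p 0.288) with all samples and -0.29 (SE 0.0667, edgeR adjusted p 0.0306) without that library. Rpn12, the subunit that joins the lid last in yeast (FBgn0028693, chromosome 3L, 16583028 to 16584022), had 2515, 2697, 2580 and 2482 in EmcOE and 2860.3, 3154, 2969 and 2239 in Control. Its log2 fold change was -0.13 (SE 0.0897, edgeR adjusted p 0.408) with all samples and -0.22 (SE 0.0519, edgeR adjusted p 0.0316) without that library. For Rpn3, whose values are given above, the log2 fold change without Control replicate 4 was -0.32 (SE 0.0743, edgeR adjusted p 0.0308). In all 4 genes the groups overlapped through Control replicate 4 only. Rpn6, Rpn11 and Rpn12 are described here because of that fit, after their values were seen.

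The testis-type paralogs were at the floor of detection or far below the ubiquitous subunits. Only 3 of the 15 reached a mean normalized count of 20 and were tested, all of them ATPase paralogs. The other 12 had at most 20 raw counts in any sample, 8 of these had at most 3 in every sample, and 10 had 0 in at least 1 sample. A count of 0 allows up to 3 counts, or 1.67 to 3.64 normalized counts depending on the library, and covers counting error only. In log2 level per kilobase with a pseudocount of 0.5, the median ubiquitous subunit was above the median paralog by 10.92 ± 0.96 in EmcOE and 10.70 ± 1.26 in Control (mean ± SD, n = 4 each). With the median paralog at or near 0 counts, this gap is set in part by the pseudocount (10.81 over all samples, and 10.31 with a pseudocount of 1) and is not compared between groups.

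Rpt6R, the paralog of Rpt6 (FBgn0039788, chromosome 3R, 30582198 to 30583697), was the best measured. It had 167, 168, 207 and 163 in EmcOE replicates 1 to 4 and 202, 266, 238 and 157 in Control replicates 1 to 4, in normalized counts. EmcOE replicate 3 stood above the other EmcOE samples, and Control replicate 2 was highest and Control replicate 4 lowest of all, as in Rpt6 itself. The means were 176 ± 20.4 against 216 ± 47.1 and the log2 fold change was -0.30 (SE 0.155, edgeR adjusted p 0.265), or -0.42 (SE 0.126, edgeR adjusted p 0.0761) without Control replicate 4. Per kilobase, Rpt6 was 18.8 to 26.2-fold above it in the 8 samples. Pairs that map to more than 1 place were not counted, so reads of near-identical copies could be lost, and the split between Rpt6 and Rpt6R is to that extent uncertain.

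Rpt4R (FBgn0036224, chromosome 3L, 11941912 to 11943485) had 35.6, 85.5, 55.98 and 50.3 in EmcOE and 51.99, 57.8, 59.5 and 45.2 in Control. EmcOE replicate 2 was the highest sample, and the rest overlapped. The log2 fold change of 0.06 (SE 0.258, edgeR adjusted p 0.907) turned to -0.21 without EmcOE replicate 2 and to -0.01 without Control replicate 4. Rpt4 was 44.4 to 90.1-fold above it per kilobase. Rpt3R (FBgn0037742, chromosome 3R, 9754735 to 9756510) had 33.4, 19.01, 31.6 and 20.1 in EmcOE and 30.97, 34.9, 30.4 and 27.4 in Control. Its groups overlapped, its log2 fold change was -0.22 (SE 0.249, edgeR adjusted p 0.62) and Rpt3 was 112 to 226-fold above it. Neither paralog differed between groups beyond the spread of the replicates.

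Among the 12 untested paralogs, Prosalpha4T1 was the only one with more than 3 raw counts in every sample, at 5 to 17, and Prosalpha4 was 200.5 to 402-fold above it per kilobase. Prosbeta2R2 ranged from 0 to 20 raw counts. Prosalpha6T, the sperm counterpart of Prosalpha6, had at most 2. Most testis and germline markers were also low. Of 21 in the table, 4 (*mia*, *betaTub85D*, *twe* and *vas*) were tested and 1 was at 0 throughout. The 21 summed to 210.1 to 362 normalized counts in EmcOE and 191 to 309 in Control, the highest in EmcOE replicate 2. Of the tested paralogs, Rpt4R was highest in that library, Rpt3R was lowest there at 19.01, and Rpt6R had 168 there. The tubulin of the male germ line *betaTub85D* had 122 there and 52.9 to 95.2 elsewhere, and *mia* averaged 73.8 in EmcOE and 55.9 in Control. The germline gene *vas* averaged 9.46 ± 2.45 against 21.04 ± 8.27, a log2 fold change of -1.13 with an unadjusted edgeR p of 0.0106 that did not pass adjustment (0.0812). A part of testis RNA in the low paralog counts was not tested.

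**Figure D4:**
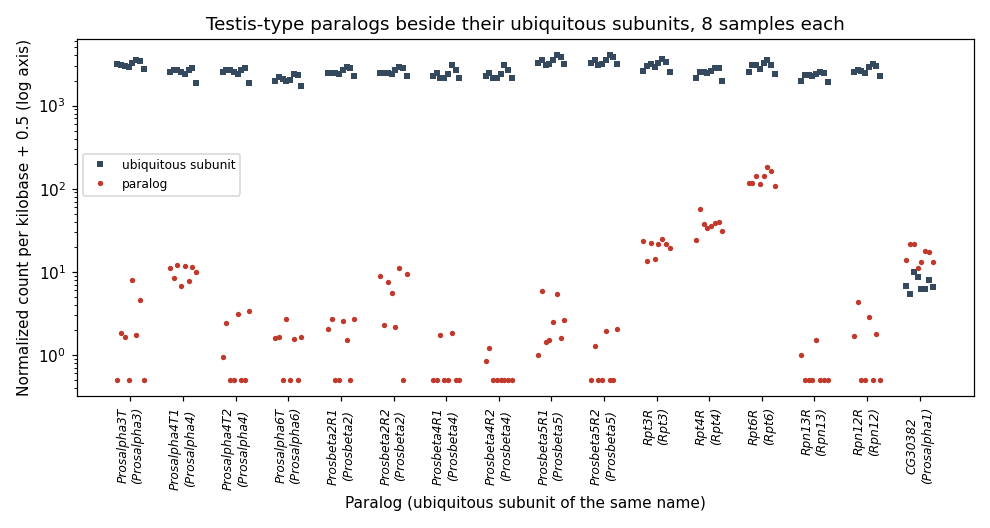
Normalized count per kilobase of exon plus 0.5 (vertical log axis) in the 8 samples for each testis-type paralog (red circles) and the ubiquitous subunit it is named after (blue squares, name in brackets), with EmcOE replicates 1 to 4 then Control replicates 1 to 4 from left to right within each gene. Rpt6 is 18.8 to 26.2-fold above Rpt6R, the nearest pair, and the last pair is Prosalpha1 beside *CG30382*, where the order is turned.

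Prosalpha1 was the 1 ubiquitous subunit almost without counts (FBgn0263121, chromosome 2R, 7827303 to 7828678). It had 11, 4, 9 and 7 raw counts in EmcOE and 5, 5, 6 and 5 in Control, against at least 1312 for every other subunit of its class. A gene 1734 bp away on the same chromosome, *CG30382*, which the reference tables name Prosalpha1R and which the rule did not take, had 9 to 23. All 5 exon starts of the 2 genes match at an offset of 3110 bp, and 3 of the 5 exon intervals are the same. Pairs mapping to more than 1 place were not counted, so the low counts of this pair are uncertain as levels, and the identity of their sequences was not examined here.

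The genes that serve the proteasome were for the most part not called either. Of the accessory and regulator genes listed, 27 were in the table and all were tested: 1 was called down and 0 up, beside 5.12% of all features called downregulated. The median log2 fold change was -0.04, with 17 lower and 10 higher. The 1 called gene was *Ubi-p63E*, a polyubiquitin gene that supplies free ubiquitin, with normalized counts of 4777, 4571, 4272 and 4971 in EmcOE and 5574, 6131, 5802 and 5849 in Control. Every EmcOE sample was below every Control sample, Control replicate 4 included, and the log2 fold change was -0.33 (SE 0.0548, edgeR adjusted p 0.00469). Its edgeR adjusted p was 0.0566 when Control replicate 4 was left out with total counts as library size.

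The next 2 by p were *RpL40*, whose product is a ribosomal protein fused to ubiquitin, and *Ubr3*, a ubiquitin ligase. *RpL40* had 10089.8, 9459, 8043 and 8806 in EmcOE and 9814, 9862, 10648 and 11367 in Control and a log2 fold change of -0.20 (SE 0.0753, edgeR adjusted p 0.131). *Ubr3* had 3527, 3832, 4136 and 3889.7 in EmcOE and 3468, 3456, 3669 and 3580.4 in Control and a log2 fold change of 0.12 (SE 0.0528, edgeR adjusted p 0.192). Control replicate 4 was the highest sample for *RpL40* and was inside the other values for *Ubr3*, and neither gene passed the test. Chosen for their roles after their values were seen, *Pomp*, the assembly factor of the core, *Sem1*, a small lid subunit outside the naming rule, and *cnc*, whose relative in mammals switches on subunit genes, had log2 fold changes of -0.07, 0.09 and -0.11 (edgeR adjusted p 0.595, 0.725 and 0.265). Control replicate 4 was the lowest sample in 14 of the 27.

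Other large complexes differed in how they stood in Control replicate 4. The COP9 signalosome, a relative of the lid, had that library lowest in 3 of 8 tested genes, the chaperonin CCT, which folds tubulin and actin, in 4 of 8, and the translation factor eIF3, whose core resembles the lid, in 0 of 13, beside 15.4% of all features. The summed level of Control replicate 4 was the lowest of the 8 libraries for COP9 (5187 normalized counts against 5358 to 5960.1) and for CCT (7151 against 7154 to 8437) and the highest for eIF3 (40754 against 35637 to 40386). The groups' medians were 0.07, -0.02 and -0.10, and 0, 1 and 3 genes were called, beside 8.68% of all features, and all 4 were down: *CCT7* (-0.38, edgeR adjusted p 0.0116) and *eIF3k*, *eIF3l* and *eIF3m* (-0.28, -0.27 and -0.26, edgeR adjusted p 0.014, 0.00608 and 0.0112). The median of the eIF3 list was thus near that of the proteasome subunits, and whether the lists differ was not tested.

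**Figure D5:**
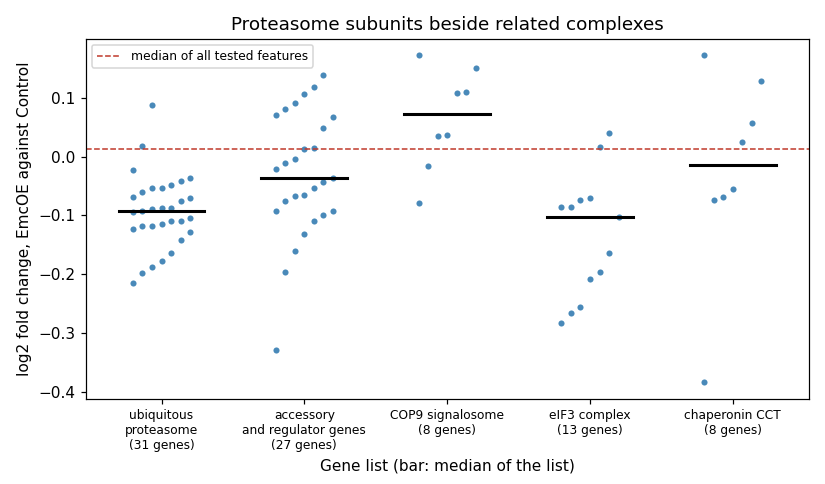
log2 fold change of EmcOE against Control (vertical axis) for the tested genes of the proteasome, its accessory genes and 3 other complexes. Each point is 1 gene, each bar the median of its list and the dashed line the median of all tested features (0.01). The medians are -0.09 for 31 proteasome subunits, -0.04 for 27 accessory genes, 0.07 for 8 COP9 genes, -0.10 for 13 eIF3 genes and -0.02 for 8 CCT genes.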

How the data were processed

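The authors trimmed the paired-end reads with BBDuk, mapped them with STAR 2.7.4a to BDGP6.32 (Ensembl release 104) and counted pairs per gene with featureCounts 2.0.1 (versions from the submitters' processing notes), without strand and without pairs that map to more than 1 place. The deposited values are these raw counts, with no normalization, and 0 columns of samples were unmatched. Start and end of all 47 members are identical in the annotation used here as reference (BDGP6.54).

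R 4.3.3 was used with limma 3.58.1, DESeq2 1.42.0 and edgeR 4.0.16. Features averaging 20 or more normalized counts in either group entered the test, TMM scaling was repeated on them, and edgeR's quasi-likelihood test compared EmcOE with Control, with Benjamini-Hochberg adjustment over all 9788 features. A call needed an adjusted p up to 0.05 together with 0.2 or more on the log2 scale in either direction. Scripts were tested on simulated data.

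Named in full were called members, the 3 lowest p-values, the highest and lowest level per kilobase in each place and the tested paralogs; of the accessory list, called genes and the 3 lowest p-values. The members and lists were chosen with earlier results of these data known. Alternatives were other scalings, filters, thresholds and tools, the replicate block, a gene length correction (lowess span 0.3) and leaving out each sample, plus, added after seeing the data, 3 fits without Control replicate 4. Promoter motifs and sequences were not analysed here. Exon overlaps with other genes are given for some members only, and others are not reported here. Fbxo7, Akirin and PSMG2 were not matched by symbol.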

Additional observations from a re-analysis of the deposited data

Results flagged for a closer look

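Of 76 groups of 4 samples examined, 4 held a sample set apart from the others by more than Dixon's 95% critical gap, and chance alone gives about 1 in 20 groups. EmcOE replicate 1 was far below the other EmcOE samples for Rpt4, at 3130.0 normalized counts against 3613 to 3702. It was likewise low for the ubiquitin receptor Rpn13, at 3327 against 3842 to 3889.9, and for Rpn3, at 4210.4 against 4944 to 5086. EmcOE replicate 3 was high for Rpt6R, at 207 against 163 to 168. EmcOE replicate 1 is also the deepest library, and the part of depth in these values was not tested.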

How the results depend on the processing

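The count of 0 called members held under other size factors, total counts, no filter, a minimum of 100 counts, no minimum fold change, DESeq2, the gene length correction and the replicate block with edgeR or DESeq2. It ranged from 0 to 4 with each sample left out. The 4 came from leaving out Control replicate 4, where 4.09% of all features were called down. In fits added after seeing the data, that omission gave 11 with DESeq2, 0 with total counts and 3 (Rpn3, Rpn6 and Rpn11) with the replicate block, where 5.66%, 2.43% and 2.86% of all features were called down. Across the planned settings with all samples, the median of the 31 ubiquitous subunits stayed between -0.10 and -0.03, the latter with total counts. With the replicate block in edgeR it was -0.09, with 0 members called and a smallest adjusted p of 0.129. Same-numbered samples deviated from their group means with correlations of -0.49, 0.15, 0.03 and -0.21. In the deposited column names, same-numbered EmcOE and Control samples share a letter, but no label says what it marks. The correlations cannot settle whether the numbers mark pairs. The replicate block changed no call of a member with all samples. The count of called accessory genes went from 1 to 2 with the gene length correction and to 0 without Control replicate 4 with total counts. The paralogs that reached the minimum went from 3 to 1 at a minimum of 100. Rpt4R (0.06) ranged from -0.21 to 0.25 with each sample left out, changing sign without EmcOE replicate 2 (-0.21) or Control replicate 4 (-0.014), and in the added fits was -0.0132 with DESeq2, -0.0183 with the replicate block and 0.0303 with total counts. The cause was not tested. Depth limits the untested paralogs, with at most 20 counts.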
